A study of Mus musculus with 12 samples.

Results

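The 10 genes described here are Bnip3, Bnip3l, Ndrg1, Adm, Ankrd37, Angptl4, Lox, Ero1a, Ak4 and Higd1a, classical targets of the hypoxia-inducible factors (HIFs) that act outside glycolysis. They were chosen by name from the 35434 genes of the count table, and all 10 were found and passed the filter on low counts, which kept 15269 genes. Their RNA was measured by bulk sequencing in 12 tumours of 4T1, a mouse mammary carcinoma line used as a model of triple-negative breast cancer, each grown under the skin of a different female BALB/c mouse aged 6 to 8 weeks. There were 4 groups with n = 3 mice each: MC lived at the ambient altitude of about 1500 m and received vehicle, MI lived there and received IOX2, HC lived in a hypobaric chamber set to 3500 m and received vehicle, and HI lived in the chamber and received IOX2. IOX2, an inhibitor of the HIF prolyl hydroxylase PHD2, was injected at 10 mg/kg daily for 10 days from day 9 after inoculation, and tumours were taken on study day 22. The labels name the same tumour line for every mouse, and inoculation followed 3 days of acclimatization. Chamber housing and simulated altitude went together, so they cannot be told apart, and "altitude" below stands for both.

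Cells with enough oxygen hydroxylate the HIF alpha subunits through prolyl hydroxylases, which leads to their destruction. When oxygen is short or the hydroxylases are inhibited, HIF accumulates, binds a short core sequence near its target genes and raises their transcription. In solid tumours the products of these 10 genes are known for the removal of mitochondria (Bnip3, Bnip3l), for a vasodilator peptide (Adm), for the control of lipoprotein lipase (Angptl4), for the crosslinking of collagen (Lox), for disulfide formation in the endoplasmic reticulum (Ero1a), and for mitochondrial and stress functions (Ak4, Higd1a, Ndrg1, Ankrd37).

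The core that HIF binds is ACGTG or GCGTG, and 4 of the members' upstream windows are shown because they differ in how many cores they hold. Windows of 250 bases before a RefSeq start were used for 6 of the 10 members (Bnip3, Adm, Ankrd37, Ero1a, Ak4 and Higd1a, build GRCm38.p6). None was used for Bnip3l, Ndrg1, Angptl4 and Lox, and member windows on the chromosome that carries Lox were left out beforehand. Letters are 5′ to 3′ on the gene's strand, and capitals mark a core read on either strand (CACGT or CACGC on the other strand), so that CACGTG counts once on each strand and CACGCGTG holds 2 overlapping cores.
Bnip3 (chr7:138909507-138909756, minus strand): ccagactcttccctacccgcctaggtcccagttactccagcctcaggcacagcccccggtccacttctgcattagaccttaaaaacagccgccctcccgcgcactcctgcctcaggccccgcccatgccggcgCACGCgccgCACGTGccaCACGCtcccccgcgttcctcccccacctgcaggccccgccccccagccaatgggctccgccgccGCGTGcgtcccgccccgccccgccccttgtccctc
Ero1a (chr14:45318573-45318822, minus strand): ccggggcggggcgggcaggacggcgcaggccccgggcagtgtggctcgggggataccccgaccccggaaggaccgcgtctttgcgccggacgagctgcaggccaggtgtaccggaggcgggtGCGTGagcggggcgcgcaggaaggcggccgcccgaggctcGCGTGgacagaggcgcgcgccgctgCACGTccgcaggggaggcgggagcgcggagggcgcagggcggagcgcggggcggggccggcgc
Ankrd37 (chr8:45999851-46000100, minus strand): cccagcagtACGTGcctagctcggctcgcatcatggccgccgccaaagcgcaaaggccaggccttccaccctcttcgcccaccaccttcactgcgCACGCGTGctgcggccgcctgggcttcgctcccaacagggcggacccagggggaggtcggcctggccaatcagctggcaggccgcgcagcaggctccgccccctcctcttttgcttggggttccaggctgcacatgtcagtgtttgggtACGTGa
Adm (chr7:110627407-110627656, plus strand): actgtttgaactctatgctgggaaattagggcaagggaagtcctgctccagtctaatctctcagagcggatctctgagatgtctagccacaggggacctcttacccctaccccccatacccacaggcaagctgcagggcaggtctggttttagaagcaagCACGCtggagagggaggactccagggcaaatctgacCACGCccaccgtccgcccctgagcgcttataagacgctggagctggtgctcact
The Bnip3 window held 5 cores, with the nearest beginning 35 bases before the start, that of Ankrd37 held 4, that of Ero1a held 3 and that of Adm held 2. Each of the 4 alternative Ak4 windows and the Higd1a window held 2. At least 1 core was present in 38.6% of the 32851 windows in the table, and 2 or more in 16.7%. Member windows had a GC content of 56.8% to 80.8% against a median of 52.4%, and among the 13478 windows with at least 55% GC the shares were 58.3% and 29.3%. A match is a description of letters and not evidence of binding.

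Library totals ran from 31661685 counts in HC1 to 40019343 in MI2, with TMM scaling factors of 0.925 to 1.03. Levels are given as CPM, the usual depth-scaled count, after TMM scaling, and values after ± are SDs over n = 3 mice unless stated otherwise. The lowest count of any member in any library was 179, for Ankrd37 in HC1, far above the floor of 3 counts that a count of 0 allows. Summed markers of the 4T1 epithelium (7 of 7 detected) were at 3869 to 4990.0 CPM in the 12 libraries, so the tumour line's own markers were present throughout. In bulk tumours, fewer cells of a type and less RNA per cell cannot be told apart. Each library came from a different mouse, so the tests between groups set a difference against the spread between mice, estimated over all groups together.

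None of the 10 members passed the threshold of edgeR's quasi-likelihood test (p adjusted by Benjamini-Hochberg over all tested genes, threshold 0.05) in any of the 7 comparisons. The share of all genes called was 0% in HC against MC, 0% in HI against MI, 0.0262% in MI against MC, 0% in HI against HC, 0.498% for altitude averaged over treatment, 0.0393% for IOX2 averaged over altitude and 0% for the altitude by IOX2 interaction, so the members' 0 of 10 stood on a background near 0. Same-numbered HC and MC libraries deviated together, and with the replicate number as a block 13 of all genes and 0 members were called in HC against MC. With an unadjusted p below 0.05 the members numbered 1 in HC against MC (Angptl4), 2 in HI against MI (Bnip3 and Adm), 2 in MI against MC (Angptl4 and Lox), 0 in HI against HC, 2 in the averaged altitude effect (Bnip3 and Angptl4), 0 in the averaged IOX2 effect and 3 in the interaction (Ankrd37, Angptl4 and Lox). The share of all genes at that level was 12%, 15.2%, 9.39%, 4.85%, 17.3%, 5.12% and 8.21% in the same order. DESeq2 called more of all genes than edgeR in each comparison, with the counts given in the last section. Among the members it called 1, Angptl4 in HC against MC, and 0 elsewhere.

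The direction of the differences is the next description. In HI against MI, 9 of 10 members had a positive log2 change, with a median of 0.45 against -0.01 for all genes tested, of which 47.8% were positive. In HC against MC, 9 of 10 were positive too, but the median was 0.13, against -0.01 for all genes. In MI against MC 5 of 10 were positive, with a median of -0.01, where 50.8% of genes were positive. In HI against HC 8 of 10 were positive, with a median of 0.30, where 50.4% of genes were. Averaged over treatment, altitude gave 10 positive members, against 46.2% of genes, with Lox at 0.03 (SE 0.24) and Ankrd37 at 0.06 (SE 0.23). IOX2 averaged over altitude gave 8 (median 0.14), against 51.7%, and the interaction 8 (median 0.38), against 47.6%. Several of these counts and medians moved when 1 library was left out, HC1 and HI1 among them, as given with those libraries. Groups did not overlap for 2 members in HC against MC (21.7% of genes), 2 in HI against MI (14.6%), 1 in MI against MC (11.1%) and 0 in HI against HC (11.4%). These comparisons share groups and are not independent of each other. Many members also had correlated levels, as given below, so a count of members is not a count of independent genes.

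**Figure D1:**
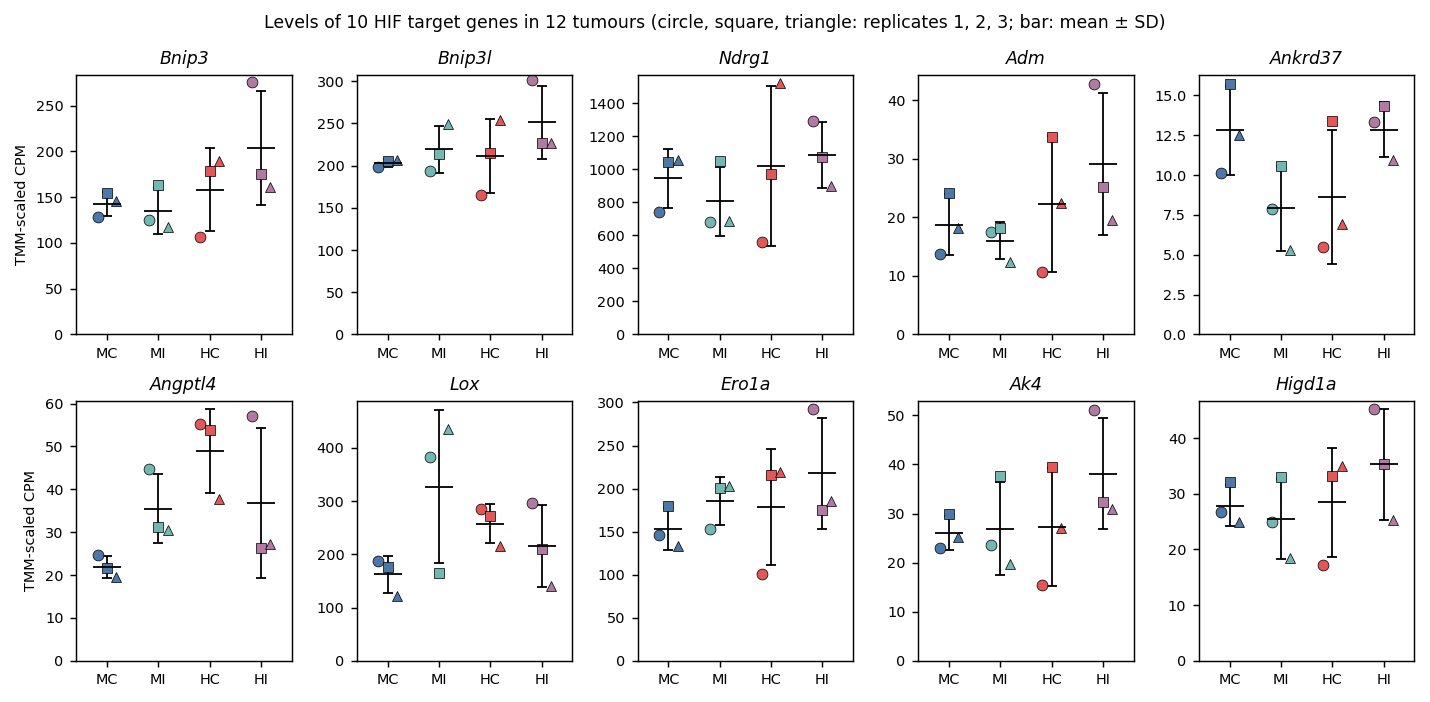
TMM-scaled CPM (vertical axis, from 0) of each of the 10 genes in groups MC, MI, HC and HI, with circles, squares and triangles for replicates 1, 2 and 3 and bars for the mean ± SD (n = 3). HI1 (a circle) is the highest of the 12 libraries for 7 of the 10 genes and HC1 (a circle) the lowest of the 12 for 7, while Angptl4 is lowest in the 3 MC tumours.

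Bnip3, which encodes a receptor on the outer mitochondrial membrane that marks mitochondria for autophagy, was at 129, 154 and 146 CPM in MC1 to MC3, 125, 164 and 117 in MI1 to MI3, 107, 178 and 189.9 in HC1 to HC3, and 275, 175 and 161 in HI1 to HI3. The HI libraries lay above MI1 and MI3 but HI3 lay just under MI2, so the groups overlapped. The log2 change in HI against MI was 0.59 (SE 0.24, adjusted p = 0.293 in edgeR), against 0.15 (SE 0.24, adjusted p = 0.876) in HC against MC. Averaged over treatment it was 0.37 (SE 0.17, adjusted p = 0.287). Without HI1 the HI against MI value was 0.32, and without HC1 the HC against MC value was 0.37.

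Bnip3l, also called Nix, is its paralog and clears mitochondria from maturing red cells. It was at 198, 205 and 207 CPM in MC, 194, 214 and 249.7 in MI, 166, 215 and 254 in HC, then 301, 226 and 227 in HI. The groups overlapped in each of the 4 comparisons of 2 groups, and the MC libraries lay closest together. The member with the smallest ratio of highest to lowest library was Bnip3l, at 1.82, and its log2 changes in the 4 comparisons of 2 groups lay between 0.06 (HC against MC) and 0.25 (HI against HC, SE 0.16, adjusted p = 0.964). Erythroid markers summed to between 19.8 and 21.1 CPM for MC, 87.6 and 123 for MI, 56.7 and 105 for HC, 167 and 319 for HI, with the highest sum in HI1, where Bnip3l was highest too. The part of red cell precursors in the Bnip3l values was not tested. A pseudogene row, Bnip3l-ps, held 382 to 720 counts per library, so reads may be divided between it and Bnip3l. Among 18 tested genes of other mitophagy and autophagy receptors, 0 were called in any of the 7 comparisons; of these the receptor gene Fundc1 averaged 63.6 ± 1.97 CPM for MC, 81.0 ± 46.3 for MI, 51.4 ± 0.687 for HC and 52.1 ± 9.55 for HI.

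Adm encodes the precursor of adrenomedullin, a peptide that widens vessels. Its levels were 13.8, 24.2 and 18.2 CPM in MC, 17.5, 18.2 and 12.4 in MI, 10.6, 33.7 and 22.4 in HC, then 42.8, 25.2 and 19.5 in HI. All 3 HI libraries were above all 3 MI libraries, a pattern that 8.02% of genes showed in this direction. The log2 change in HI against MI was 0.86 (SE 0.39, adjusted p = 0.325), and 0.48 without HI1. In HC the 3 tumours spread from the lowest Adm level of all 12 libraries, in HC1, to the second highest, in HC2, and HC against MC gave 0.25 (SE 0.39, adjusted p = 0.869). Of 8 genes for the peptide's receptor and its processing, 0 were called in any comparison; Ramp2, a receptor partner in endothelium, averaged 8.97 ± 0.414 CPM for MC, 9.93 ± 1.11 for MI, 10.7 ± 2.73 for HC and 6.79 ± 0.564 for HI. Summed endothelial markers (9 of 9 tested) ran from 268 to 296 CPM in HI, below the 328 to 494 CPM of the other 9 libraries, and their part in the Ramp2 or Adm values was not tested.

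Ndrg1, a stress-responsive gene linked to differentiation and metastasis control, was the most abundant member per length. It was at 741, 1044 and 1058 CPM in MC, 684, 1049.8 and 689 in MI, 559, 972 and 1526 in HC, then 1294, 1074 and 897 in HI. The HC group held both the lowest and the highest of the 12 libraries. No comparison gave a log2 change beyond 0.43, the value in HI against MI (SE 0.31, adjusted p = 0.494). Without HC3 the log2 change in HC against MC was -0.31 in place of 0.10, and without HC1 it was 0.40.

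Ero1a, which encodes the oxidase that recharges protein disulfide isomerase, was at 146, 179.6 and 133 CPM in MC, 153, 201 and 203 in MI, 101, 216 and 219.6 in HC, then 292, 175 and 185 in HI. Its groups overlapped in every comparison, and its log2 changes were close to each other: 0.23 in HC against MC and in HI against MI, and 0.28 in MI against MC and in HI against HC (SE 0.28 in each; adjusted p = 0.666 to 0.977 in edgeR). The interaction was 0.00 (SE 0.39), with an interval from -0.86 to 0.86 that leaves sizeable differences possible. Of 10 other genes of disulfide formation 0 were called, and Qsox1, a secreted sulfhydryl oxidase gene, averaged 187 ± 18.5 CPM for MC, 163 ± 11.04 for MI, 139 ± 21.9 for HC and 128 ± 12.8 for HI (averaged altitude effect -0.39, SE 0.09, adjusted p = 0.0731).

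Ak4 encodes a mitochondrial adenylate kinase. It was at 23.0, 29.9 and 25.2 CPM in MC, 23.6, 37.6 and 19.6 in MI, 15.4, 39.4 and 27.0 in HC, then 51.2, 32.2 and 30.9 in HI. Its MI, HC and HI tumours each differed from one another more than the MC tumours did, with SDs of 9.45, 12.0 and 11.3 CPM against 3.49 CPM. The log2 change was 0.50 (SE 0.33, adjusted p = 0.456) in HI against MI and 0.07 (SE 0.33, adjusted p = 0.967) in HC against MC. Of 7 tested other adenylate kinase genes, 0 were called; the cytosolic Ak1 averaged 21.2 ± 3.31 CPM for MC, 21.4 ± 3.39 for MI, 15.3 ± 2.61 for HC and 18.4 ± 2.07 for HI (averaged altitude effect -0.35, SE 0.12, adjusted p = 0.172).

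Higd1a, whose product sits in the inner mitochondrial membrane and interacts with the respiratory chain, was at 26.6, 32.1 and 25.0 CPM in MC, 24.9, 33.0 and 18.5 in MI, 17.2, 33.2 and 35.0 in HC, then 45.3, 35.3 and 25.3 in HI. The order of the libraries resembled that of Bnip3, with HC1 lowest and HI1 highest. Its log2 change was 0.47 (SE 0.29, adjusted p = 0.429) in HI against MI and 0.03 (SE 0.29, adjusted p = 0.984) in HC against MC. Of 5 tested paralogs of Higd1a and Ndrg1, 0 were called in any comparison.

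Ankrd37, a small ankyrin-repeat gene with the lowest counts of the members, had a lower mean in MI and HC than in MC and HI. It was at 10.1, 15.7 and 12.5 CPM in MC, 7.89, 10.6 and 5.27 in MI, 5.47, 13.4 and 6.96 in HC, then 13.3, 14.3 and 10.9 in HI. Its MI mean of 7.91 ± 2.65 CPM and HC mean of 8.61 ± 4.21 lay under the MC mean of 12.8 ± 2.81 and the HI mean of 12.9 ± 1.74, although HC2 and MI2 lay inside the MC range. All 3 HI libraries were above all 3 MI libraries (log2 change 0.70, SE 0.33, adjusted p = 0.336). The interaction was 1.27 (SE 0.46, 95% interval 0.26 to 2.28) with an unadjusted p of 0.0183 in edgeR and an adjusted p of 0.596. Exons of Ankrd37 overlap those of Ufsp2 on the opposite strand in GENCODE vM21, Ufsp2 averaged 40.6 CPM, and the strand setting of the counting is not given in the sources used here, so reads from the shared stretch may be lost or misassigned.

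**Figure D2:**
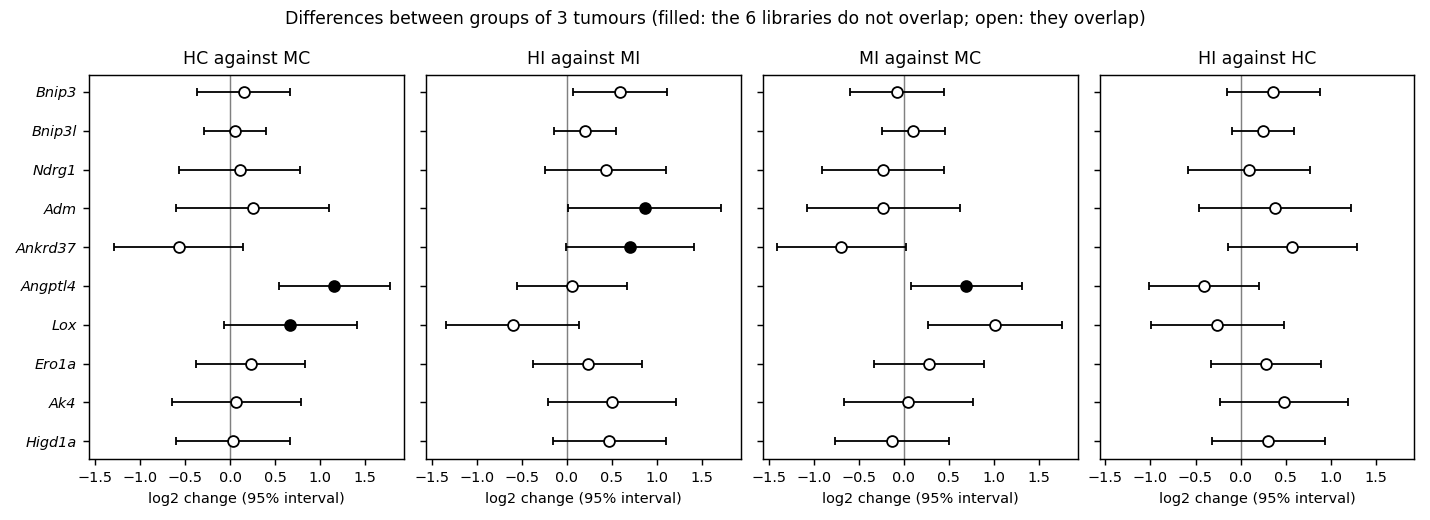
Log2 change (horizontal axis) with its 95% interval from edgeR for each of the 10 genes in the 4 comparisons of 2 groups; filled points are genes whose 6 libraries do not overlap between the groups and open points are genes whose libraries overlap. Filled points are Angptl4 and Lox in HC against MC, Adm and Ankrd37 in HI against MI, and Angptl4 in MI against MC; there are 0 in HI against HC.

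Angptl4, which encodes a secreted inhibitor of lipoprotein lipase, was the member whose levels separated the MC tumours from all others. It was at 24.6, 21.7 and 19.5 CPM in MC, 44.8, 31.1 and 30.5 in MI, 55.2, 53.9 and 37.6 in HC, then 57.1, 26.3 and 27.3 in HI. The 3 MC libraries were all below the other 9, which was the case for 0.74% of all genes and for 1 of the 10 members; the pattern was noticed in these values. In HC against MC the log2 change was 1.16 (SE 0.28, 95% interval 0.54 to 1.77, unadjusted p = 0.00168, adjusted p = 0.223 in edgeR), and in MI against MC it was 0.69 (SE 0.28, adjusted p = 0.492), where 4.75% of genes had all MI libraries above all MC libraries. These comparisons share the MC tumours. In HI against MI it was 0.06 (SE 0.28, adjusted p = 0.938) and -0.40 without HI1. The interaction was -1.10 (SE 0.40, adjusted p = 0.596). DESeq2 gave an adjusted p of 0.00969 for HC against MC, and edgeR gave 0.0458 without HI1, 0.523 without HC1 and 0.757 without MC3, with log2 changes of 1.06 to 1.31 over all alternatives run. The settings in which Angptl4 passed also called more of all genes there than the main fit, as given in the last section.

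Markers of fat cells, which also make Angptl4, stood at different levels in these tumours. The 10 adipocyte markers, all detected, summed to between 65.9 and 91.2 CPM for MC, 97.2 and 201 for MI, 92.9 and 639.9 for HC, 67.5 and 367 for HI. Of the 10 markers, 10 had a positive log2 change in HC against MC (median 3.24), 10 with an unadjusted p below 0.05 in edgeR (12% of all genes) and 0 called. In MI against MC 10 were positive (median 1.33, 50.8% of all genes positive), in HI against MI 9 (47.8%) and in HI against HC 0 (50.4%). Adrb3, a defining marker, was at a count of 0 in MC2, HC3 and HI3. In HC1 and HC2 the marker sums were 639.9 and 473 CPM, and Angptl4 was at 55.2 and 53.9 CPM. In HC3 the marker sum was 92.9 CPM, close to the 91.2 of MC1, and Angptl4 was at 37.6 against 24.6 CPM. In HI2 the sum was 367 CPM and Angptl4 was at 26.3 CPM. The PPARs are lipid-sensing nuclear receptors that also act on Angptl4. Of 11 PPAR targets, 11 had a positive log2 change in HC against MC (median 2.11), where 47.8% of all genes did. Of these, 10 had an unadjusted p below 0.05 in edgeR (12% of all genes). In HI against HC 0 of the 11 were positive (median -0.76), where 50.4% of genes were, and 0 were called in either. Fabp4, which is also among the adipocyte markers, averaged 26.4 ± 4.71 CPM for MC, 45.3 ± 16.8 for MI, 153 ± 113 for HC and 86.5 ± 55.2 for HI. Cpt1a, the gate of fatty acid entry into mitochondria, averaged 88.5 ± 19.0 CPM for MC, 108 ± 4.44 for MI, 167 ± 49.0 for HC and 156 ± 38.9 for HI. The part of fat cells in the Angptl4 values was not tested. The lipase gene Lpl averaged 16.7 ± 5.11 CPM for MC, 30.0 ± 13.7 for MI, 43.0 ± 28.8 for HC and 27.9 ± 17.3 for HI. The gene of its endothelial anchor, Gpihbp1, averaged 21.9 ± 6.61 CPM for MC, 17.5 ± 1.27 for MI, 14.0 ± 3.98 for HC and 11.2 ± 0.502 for HI. Of 8 tested lipase and angiopoietin-like genes, 0 were called in any comparison.

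Lox encodes lysyl oxidase, which crosslinks collagen and elastin. It was at 188, 177 and 122 CPM in MC, 382, 165 and 436 in MI, 284, 272 and 216 in HC, then 296, 209.6 and 141 in HI. The HC libraries were all above the MC libraries, as for 10.3% of genes in this direction, whereas in MI 2 tumours were the highest of the 12 and MI2 lay inside the MC range. The log2 change was 0.67 (SE 0.34, adjusted p = 0.468) in HC against MC and 1.01 (SE 0.34, unadjusted p = 0.0121, adjusted p = 0.492) in MI against MC. In HI against MI it was -0.60 (SE 0.34, adjusted p = 0.398), and the interaction was -1.27 (SE 0.48, 95% interval -2.32 to -0.23, adjusted p = 0.596). Without MI3 the MI against MC value was 0.76 and without MI2 it was 1.33 (adjusted p = 0.0820).

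Fibroblast markers (8 of 8 detected) summed to between 6599 and 9852 CPM for MC, 7309.9 and 10912 for MI, 7669 and 13200.5 for HC, 7733 and 8336 for HI. The highest sum was in HC1, where Lox was at 284 CPM, and MI3, with the highest Lox level, had a sum of 9866, close to the 9852 of MC1, where Lox was at 188 CPM. Of the 8 markers, 8 had a positive log2 change in MI against MC and 6 in HC against MC (50.8% and 47.8% of all genes). In HI against MI, in HI against HC and in the interaction 0 of the 8 were positive (47.8%, 50.4% and 47.6% of all genes). No marker was called in these comparisons. The part of fibroblasts in the Lox values was not tested. Of 10 genes of the lysyl oxidase family and collagen crosslinking, 0 were called in any comparison. Among them Plod2, a collagen lysyl hydroxylase gene and itself a HIF target, averaged 84.3 ± 13.3 CPM for MC, 114 ± 19.8 for MI, 97.4 ± 19.2 for HC and 104 ± 19.8 for HI, and the family member Loxl3 averaged 160.0 ± 35.0 CPM for MC, 179.6 ± 24.6 for MI, 187 ± 16.2 for HC and 154 ± 10.4 for HI.

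**Figure D3:**
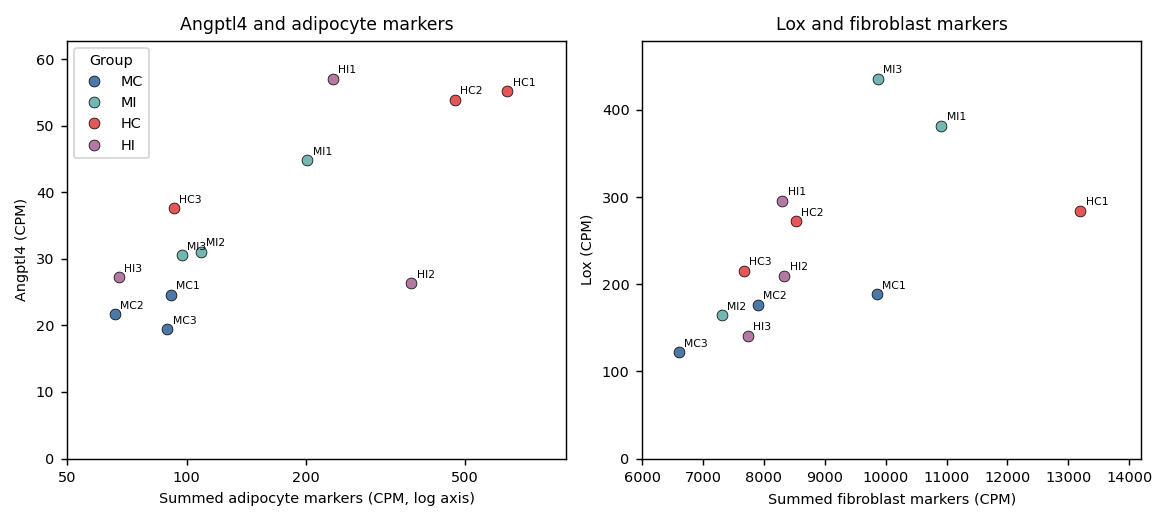
Left, Angptl4 (CPM, vertical axis) against summed adipocyte markers (CPM, log axis); right, Lox against summed fibroblast markers (CPM); each point is 1 of 12 libraries, coloured by group and named. HC1 and HC2 sit at the right of the left panel with Angptl4 at 55.2 and 53.9 CPM, while HC3 is at 37.6 with a marker sum of 92.9; MI1 and MI3 stand highest for Lox.

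The members differed between tumours of the same group by more than most genes did. The median coefficient of variation over 3 mice was 14.5% for members against 10.2% for all tested genes in MC, 24.4% against 14.9% in MI, 36.1% against 10.5% in HC and 29.8% against 11.5% in HI. Above the median of all genes were 8 of 10 members in MC, 9 in MI, and all 10 in HC and in HI. The ratio of the highest to the lowest library was 1.82 to 4.02 for members (4.02 for Adm), against a median of 1.45 over the 9827 genes averaging 10 CPM or more.

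In the levels of the members, a pair of libraries stood apart in the chamber groups. HI1 was the highest of the 12 libraries for 7 members (Bnip3, Bnip3l, Adm, Angptl4, Ero1a, Ak4 and Higd1a) and was above the gene's own mean for 10 of 10. HC1 was the lowest for 7 (Bnip3, Bnip3l, Ndrg1, Adm, Ero1a, Ak4 and Higd1a). The mean over members of log2 CPM minus each gene's mean was 0.67 in HI1 and -0.48 in HC1, and from -0.26 to 0.34 in the other 10 libraries. HC1 also had the lowest library total and the highest adipocyte and fibroblast sums of the 12, and HI1 had the highest erythroid sum, 319 CPM. The part of these values in the members' levels was not tested.

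Leaving these libraries out moved the groups' differences. In HC against MC the median log2 change of the members, 0.13 with 9 of 10 positive, was 0.38 with 9 positive without HC1, but 0.02 with 5 positive without HC3, 0.05 with 6 positive without HC2 and 0.05 with 6 positive without MC1. With HC1 left out, the median in HI against HC was 0.05 in place of 0.30. With HI1 left out, the median in HI against HC was 0.05 too, and in HI against MI it was 0.24 with 7 positive in place of 0.45 with 9. In HI against MI it was 0.30 with 8 positive without MI3 and 0.68 with 8 positive without MI2. The averaged altitude effect, at 0.26 with 10 positive, had a median of 0.15 with 9 positive without HI1, 0.15 with 10 without HC3, 0.17 with 9 without HC2 and 0.40 with 9 without HC1. The averaged IOX2 effect, at 0.14 with 8 positive, had a median of -0.01 with 5 positive without HI1, 0.07 with 6 without HC1 and 0.08 with 7 without MI2. The interaction, at 0.38 with 8 positive, had a median of 0.09 with 6 positive without HC1, 0.16 with 6 without HI1, 0.23 with 8 without MI3 and 0.58 with 8 without MI2. With both left out it was 0.38 in HC against MC, 0.24 in HI against MI and -0.22 in HI against HC, where 1 of 10 members was positive in place of 8. The averaged IOX2 effect was then -0.07 with 3 positive, and the interaction -0.12 with 1 positive. That setting was chosen after seeing the data, and 0 members were called in it. The sign in HC against MC also turned on other HC tumours: without HC2 the log2 change was -0.18 for Adm and -0.29 for Ak4, and without HC3 it was -0.10 for Bnip3l and -0.15 for Higd1a.

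**Figure D4:**
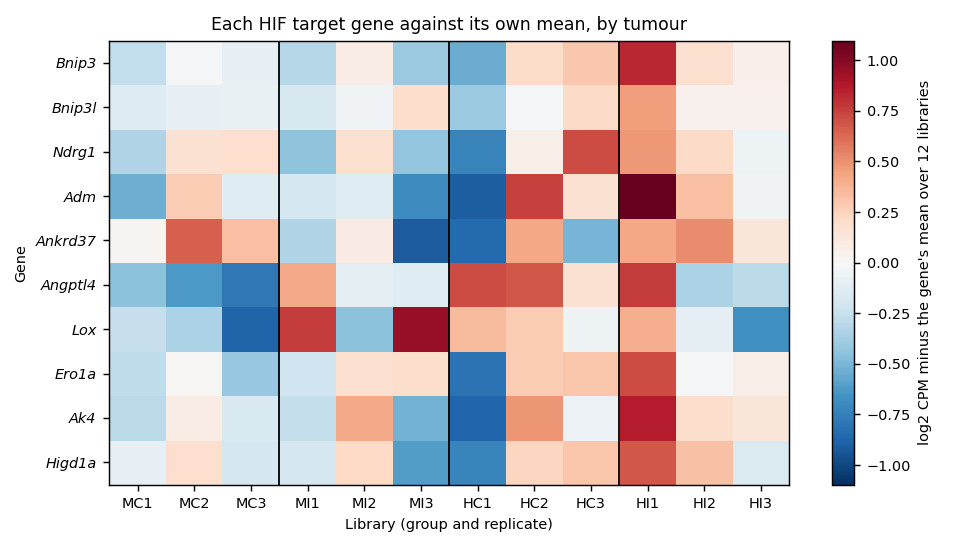
Log2 CPM of each of the 10 genes (rows) minus that gene's mean over the 12 libraries (columns, with lines between groups MC, MI, HC and HI); red is above and blue below the mean. The HI1 column is red in every row, the HC1 column is blue in every row but Angptl4 and Lox, and the MC columns are blue for Angptl4.

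Across the 12 tumours many pairs of members had correlated levels. Of the 45 pairs, 22 had a Pearson correlation of log2 CPM with a Benjamini-Hochberg adjusted permutation p under 0.05 (100000 permutations, r = 0.66 to 0.92), and for 13 of the 22 the adjusted p of Spearman's rho was under 0.05 too. Of the 28 pairs among the 8 members other than Angptl4 and Lox, 21 passed. Of the 16 pairs between these 8 and Angptl4 or Lox, 0 passed, and the remaining pair that passed was Angptl4 with Lox. This division was made after seeing the correlations, and the libraries come from 4 groups, so a difference between groups enters each value.

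The pair Bnip3 and Higd1a had r = 0.92 and rho = 0.94 (permutation p = 4e-05 and 2e-05, adjusted p = 0.0006 and 0.0009, n = 12), r = 0.86 without the 2 libraries farthest from the median of Bnip3 (HC1 and HI1), and r = 0.92 after each group's mean was subtracted. Adm and Ak4 had r = 0.91 and rho = 0.87 (permutation p = 3e-05 and 0.00044, adjusted p = 0.0006 and 0.00495), and r = 0.82 without HC2 and HI1. Without HC1 and HI1, the libraries that stood apart, Adm and Ak4 had r = 0.79, so both pairs kept a high r without them. Bnip3 and Bnip3l, the paralogs, had r = 0.78 and rho = 0.69 (permutation p = 0.00439 and 0.0156, adjusted p = 0.0162 and 0.05005, the latter just above the threshold). Their r was 0.32 without HC1 and HI1 (unadjusted permutation p = 0.364), and 0.75 after each group's mean was subtracted. Leaving out the libraries farthest from the Bnip3 median narrows its range, and the few libraries left cannot show that the relation is absent. Bnip3l was closest to Ero1a among the members, with r = 0.90 and rho = 0.85 (permutation p = 0.00023 and 0.00103, adjusted p = 0.00148 and 0.00662), and r = 0.70 without HC1 and HI1. Angptl4 and Lox had r = 0.66 and rho = 0.69 (permutation p = 0.0206 and 0.0174, adjusted p = 0.0421 and 0.0521), and r = 0.64 without HC1 and HI1. Of the 22 pairs, 13 kept an unadjusted permutation p under 0.05 once the 2 farthest libraries were left out, and over all 22 pairs r then ran from 0.29 to 0.89.

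**Figure D5:**
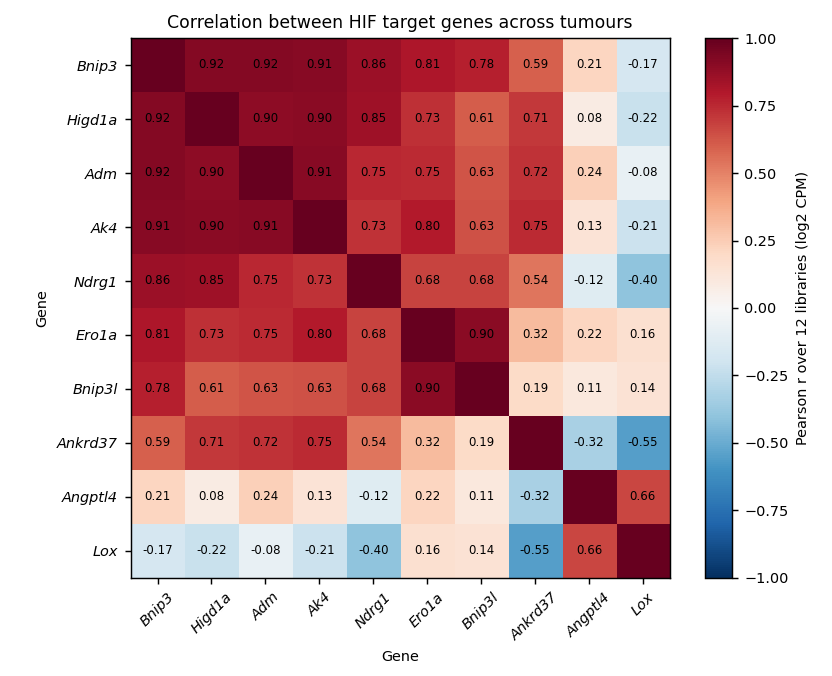
Pearson r of log2 CPM over 12 libraries for each pair of the 10 genes (rows and columns). The block of Bnip3, Higd1a, Adm, Ak4, Ndrg1, Ero1a and Bnip3l is between 0.61 and 0.92, Ankrd37 is between 0.19 and 0.75 with these, and Angptl4 and Lox are at 0.66 with each other and between -0.55 and 0.24 with the rest.

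Among 10832 other genes averaging 5 CPM or more, the 3 whose pattern over the 12 libraries was most like each member were named by the highest Pearson r of log2 CPM, given here as a description. For Bnip3 these were Pfkl (0.98), the glucose transporter gene Slc2a1 (0.97) and Pgm1 (0.97), and for Higd1a the glycolytic genes Pgam1 (0.96), Pkm (0.96) and Pgk1 (0.96). For Ak4 they were the enolase gene Eno2 (0.97), the glycogen synthase gene Gys1 (0.95) and Tnfsf9 (0.95), and for Ero1a the glycogen branching enzyme gene Gbe1 (0.96), Spire1 (0.94) and Map2k4 (0.93). Adm was closest to Dusp4 (0.95), Tnfsf9 (0.95) and the lipid droplet gene Hilpda (0.95), and Ndrg1 to Gga1 (0.94), Rara (0.94) and the glycolytic gene Gpi1 (0.94). Bnip3l was closest to Fosl2 (0.96), Spire1 (0.93) and Zmiz1 (0.92), and Ankrd37 to H1f0 (0.89), Nacc1 (0.88) and Kat8 (0.88). Angptl4 was closest to Spsb1 (0.95), Tigit (0.95) and Cep162 (0.94), and Lox to Gda (0.97), Papss2 (0.97) and Filip1l (0.97). Spire1 (named for Bnip3l and Ero1a) and Tnfsf9 (for Adm and Ak4) were the genes named for more than 1 member.

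Levels of different genes can be set side by side only per length, in the authors' FPKM. Averaged over the 12 libraries, Ndrg1 was highest at 334 ± 92.7 FPKM (SD over libraries), above 98.9% of tested genes, and Bnip3 followed at 91.0 ± 24.5. The next were Bnip3l at 50.9 ± 6.98, Lox at 49.9 ± 18.9 and Ero1a at 41.4 ± 10.5 FPKM, whose ranges overlapped: Bnip3l was above Lox in 8 of 12 libraries and Lox above Ero1a in 6. Angptl4 (18.8 ± 7.18), Adm (15.4 ± 6.41), Higd1a (14.8 ± 3.94) and Ankrd37 (13.7 ± 4.57) had overlapping ranges too. Ak4 was lowest at 3.62 ± 1.18 FPKM, below Ankrd37 in 12 of 12 libraries.

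Other HIF targets give the frame for these values. Of 43 further HIF target genes outside glycolysis, all tested, 0 were called in any of the 7 comparisons. In HI against MI 24 of the 43 had a positive log2 change (median 0.07), and 11 with a positive and 1 with a negative change had an unadjusted p below 0.05 (6.77% and 8.43% of all genes). Of 20 glycolytic HIF targets, 17 were positive there (median 0.39), 12 of them with an unadjusted p below 0.05 and 0 called. In HC against MC 20 of 43 (median -0.01) and 11 of 20 (median 0.04) were positive. Individual genes departed from one another: Ddit4, a brake on mTOR, averaged 207 ± 18.0 CPM for MC, 151 ± 13.5 for MI, 173 ± 10.1 for HC and 234 ± 26.6 for HI, with a log2 change of 0.63 in HI against MI (SE 0.11, adjusted p = 0.0903). Stc1, a secreted glycoprotein gene, averaged 54.8 ± 10.7 CPM for MC, 48.5 ± 13.6 for MI, 20.8 ± 2.11 for HC and 28.0 ± 15.1 for HI (averaged altitude effect -1.09, SE 0.23, adjusted p = 0.0702), opposite in sign to the 10 members, all of which were positive in that average (median 0.26, 46.2% of all genes positive). For Lox and Ankrd37 that averaged effect was smaller than its SE.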

How the data were processed

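Bulk RNA-seq of 12 tumours was used, 3 per group, grouped by the titles in GEO's labels. Build GRCm39 and the tools HTSeq 0.11.2, HISAT2 2.1.0, fastp 0.20.1, R 3.5.1 and DESeq2 1.22.2 are named, per the submitters' processing notes, without roles; no source used here gives the annotation or strand setting. Counts were deposited unnormalized, as whole numbers per gene, and the deposited FPKM table holds the authors' length- and depth-scaled values. FPKM was used only to set levels of different genes side by side. Here counts were fitted in R 4.3.3 with edgeR 4.0.16 (filterByExpr, TMM, quasi-likelihood F test, 1 mean per group over all 12 libraries), and p-values were adjusted by Benjamini-Hochberg over 15269 genes at a threshold of 0.05. The code was tested on simulated data for HC against MC. It called 22% of the simulated 1.5-fold changes and 90% of the 2-fold changes, with 6 false calls. The changed genes were drawn at random from genes above a minimum level. Members varied more than most genes (median coefficient of variation in HC 36.1% against 10.5%), so these shares cannot be carried over to them. Angptl4, 2.23-fold higher in HC than in MC, was not called (adjusted p = 0.223 in edgeR). A member that was not called may therefore still have changed. Standard errors and 95% intervals use the quasi-likelihood dispersion. Log2 CPM for correlations used a prior count of 2. An exact test of 3 against 3 cannot give a two-sided p below 0.1. The alternatives were DESeq2 1.42.0, DESeq2 size factors in edgeR, no filter, a replicate block, and leaving out each library. For replicates 1 to 3, deviations from the group means correlated at 0.278, 0.153 and 0.209 between HC and MC over tested genes, each above 0.1, which pairs them by the rule used; those of MI and HI (0.257, 0.072 and 0.131) did not all exceed 0.1, and no label names a pairing. The members, lists and tests were chosen with earlier results of these data known. Named genes are the 10 members, up to 3 genes of each pathway list with the smallest p, and the 3 genes most correlated with each member, leaving out predicted genes and pseudogenes. Promoter sequences are RefSeq's, build GRCm38.p6, matched by symbol.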

Additional observations from a re-analysis of the deposited data

How the results depend on the processing

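No member was called under edgeR with DESeq2 size factors, no filter, the replicate block, or HC1 and HI1 both left out (a setting chosen after seeing the data), in any of the 7 comparisons. DESeq2 called 1 member, Angptl4, in HC against MC, and leaving out single libraries gave 0 to 1 members there (1 without HI1) and 0 in the other 6 comparisons. Of the members' 840 log2 changes with 1 library left out, 47 took the opposite sign and 1 passed the threshold; none of those 47 was called. Counts over all genes depended more on the setting. DESeq2 called 307 genes in HC against MC, 379 in HI against MI, 22 in MI against MC, 18 in HI against HC, 845 for averaged altitude, 11 for averaged IOX2 and 30 for the interaction, against 0, 0, 4, 0, 76, 6 and 0 in edgeR. DESeq2 size factors gave 1 in HI against MI. No filter gave 2 in HC against MC, 16 in HI against MI and 166 for averaged altitude. The replicate block gave 13 in HC against MC, 3 in HI against HC and 155 for averaged altitude, and changed no call of a member. With HC1 and HI1 both left out there were 2, 2 and 4 in the same 3 comparisons. Leaving out single libraries gave 0 to 40 genes in HC against MC (40 without HI1), 0 to 520 in HI against MI (520 without MI2), 0 to 6 in MI against MC, 2 to 339 for averaged altitude (339 without HI3), 4 to 6 for averaged IOX2 and 0 to 2 for the interaction. The cause of these shifts was not tested. Every member had at least 179 counts in every library.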
